A study of Mus musculus with 6 samples.

Results

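Amino acids enter a cell through carrier proteins of the solute carrier (SLC) superfamily, and several carrier genes are switched on when amino acids run short or when other stresses act. Under such stress, kinases phosphorylate the translation factor eIF2 alpha, general protein synthesis slows, and the transcription factor ATF4 is made in larger amounts. ATF4 binds with partners of the C/EBP family and raises genes for amino acid uptake, amino acid synthesis and tRNA charging, a programme known as the integrated stress response. Described here are 9 transporter genes of that programme: Slc7a11, Slc3a2, Slc7a5, Slc7a1, Slc7a3, Slc1a4, Slc1a5, Slc38a2 and Slc6a9, out of 18820 genes with a usable probe set. They were listed by name as transporters under stress control, and each was represented by the probe set that names it alone and has the highest mean over all 6 arrays. Probe sets were thus chosen by their mean level, and the names were proposed with earlier results of these data in view, on the arrays numbered 1 and on ATF4 targets in silenced cells. The contrast between numbers is therefore given as a description with no test. For silencing, nothing is read from a member's unadjusted p or from its rank among the members.

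The arrays came from C2C12 cells, immortalized myoblasts of the mouse that form multinucleated myotubes in low serum. All 6 samples were kept in 2% horse serum to differentiate. They received a locked nucleic acid (LNA) oligonucleotide (50 nM) by lipofection on day 6, and RNA was taken on day 7, after 24 h. The oligonucleotide was an inhibitor of miR-382-5p in the 3 silenced samples and Negative Control A in the 3 control samples, and both groups carry replicate numbers 1 to 3. C2C12 is 1 clonal line, no untransfected cells were included in these arrays, and no label says whether same-group samples were separate cultures, so p-values measure a spread between samples that may be only technical. The silenced microRNA is a mature strand of 22 bases that RefSeq places at chr12:109733781-109733802 (GRCm38.p6, plus strand). It is shown because it defines the treatment, with the seed, bases 2 to 8, in capitals.
mmu-miR-382-5p: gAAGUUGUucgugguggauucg

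Values are log2 expression levels after RMA, so a difference of 1 is a 2-fold difference. Levels were compared between arrays, and between genes only to place them against a low-value filter. Genes whose mean lay above the 40th percentile of all genes (3.87) were tested for silencing, 11292 in all, and 8 of the 9 transporters were among them. Slc7a3 lay below that level. The arrays stood apart by replicate number more than by treatment. Principal component 1 of the tested genes, with 46.8% of the variance, set both arrays numbered 1 (-15.0 control, -19.3 silenced) apart from the other 4 (7.29 to 9.96). The filter passed 11292 of the 18820 genes, so passing it is no proof of a cell type. Of the myotube markers 20 of 20 passed, with a mean level of 10.1 to 10.5 on every array. Markers of other states passed too: all 8 of undifferentiated myoblasts, 7 of 7 measured of dividing cells and 6 of 7 of fibroblasts. For adipocytes 2 of 6 passed, and for osteoblasts and chondrocytes 3 of 7.

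In both groups, 8 of the 9 transporter genes were lower on number 1 than the mean of numbers 2 and 3. Of all tested genes, 31.2% were. For 7 of the 9, both arrays numbered 1 lay below all other arrays of either group, beside 15.3% of tested genes. These 7 were lower by 1.44-fold to 4.94-fold in control and 1.5-fold to 4.64-fold in silenced arrays. The list was drawn up with this contrast known, so nothing is read from the shares. Slc7a11 differed most and Slc6a9 next, while Slc38a2 was lower by 0.11 log2 in each group, with overlap across groups, and Slc7a3 was read near the bottom of the scale. Between silenced and control means, the differences of the 9 transporters ran from -0.22 to 0.11 log2. Limma's threshold was passed by 0 of 8 tested members and by 0% of all tested genes. These are estimates from 3 arrays per group. Without the replicate number in the fit, the 95% confidence interval for Slc7a11 ran from -2.07 to 1.63.

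**Figure D1:**
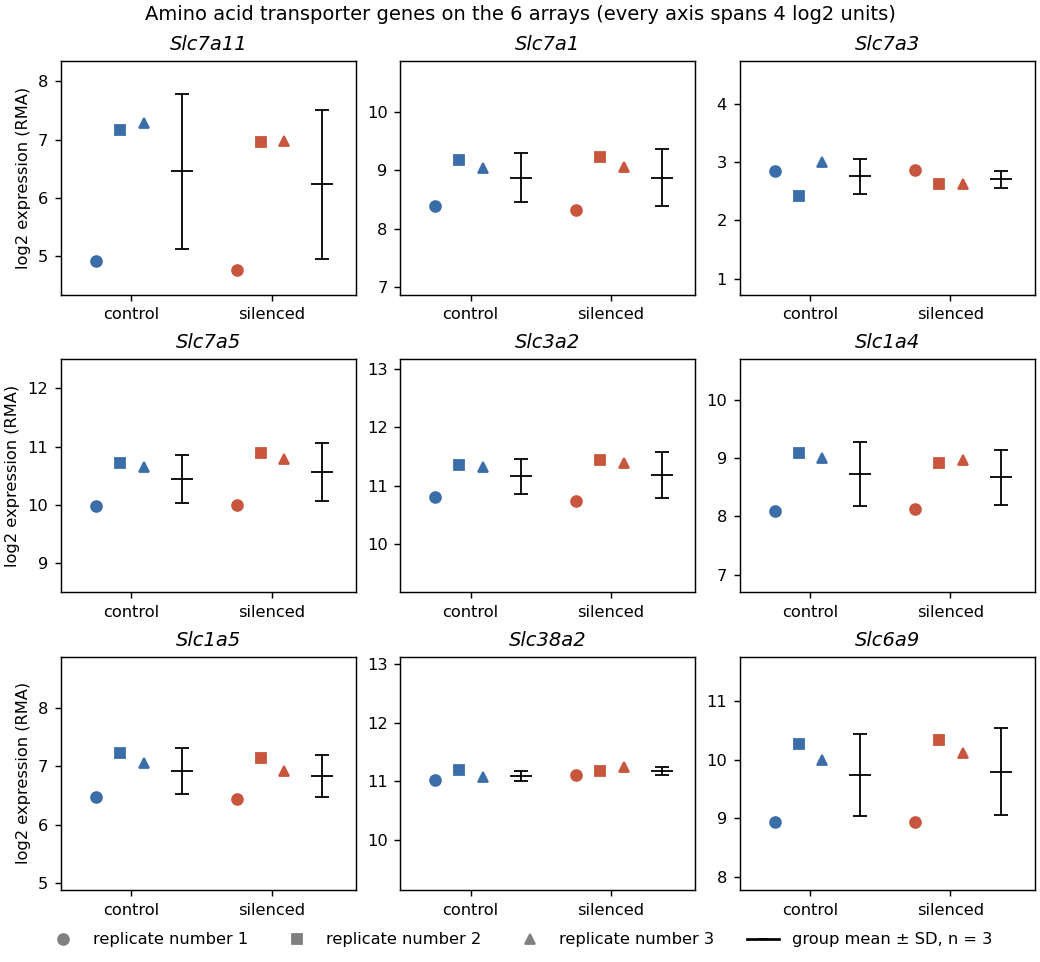
Log2 expression (RMA) of the 9 transporter genes, 1 panel each, on control (blue) and silenced (red) arrays; symbols give the replicate number, the horizontal line the group mean and the bar the SD (n = 3), and every axis spans 4 log2 units. In 7 panels both circles, the arrays numbered 1, lie below the other 4 points, from 4.76 and 4.92 against 6.97 to 7.28 for Slc7a11 to a smaller gap of 0.44 for Slc1a5, while Slc38a2 is nearly level.

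Promoter sequence was examined for the element through which ATF4 and C/EBP partners act, the C/EBP-ATF response element (CARE), searched as TGATGNAAN on both strands of the 300-base windows of the RefSeq promoter table (GRCm38.p6). Windows were found for 6 of the members, 9 windows in all, and none for Slc7a3, Slc7a5 and Slc1a5. Slc7a11 held 2 matches, on opposite strands with 9 bases between them, 58 to 66 and 40 to 48 bases upstream of the start base. Slc1a4 held 1 match, from 5 bases before the start base to 3 after it, on the reverse strand. The windows of Slc7a1, Slc3a2, Slc38a2 and Slc6a9 held none, which says only that these letters are not in those windows. Of all 32851 windows in the table, 3.95% held a match. The 2 stretches with a match are shown with it in capitals, each from 100 bases before the start base and 20 bases from it on. They lie at chr3:50443594-50443713 (minus strand) for Slc7a11 and chr11:20332694-20332813 (minus strand) for Slc1a4.
Slc7a11: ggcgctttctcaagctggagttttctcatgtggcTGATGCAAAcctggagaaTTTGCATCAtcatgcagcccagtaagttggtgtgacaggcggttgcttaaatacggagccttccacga
Slc1a4: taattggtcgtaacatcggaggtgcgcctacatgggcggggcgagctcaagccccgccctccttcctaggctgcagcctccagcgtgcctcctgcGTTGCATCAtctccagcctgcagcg

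The core of the antioxidant response element, the site of the factor NRF2, was searched as TGACNNNGC in the same way. It matched in windows of Slc7a1, Slc38a2 and Slc6a9 and in 12.4% of all windows, and no base of the members' windows lay in matches of both motifs. Slc7a11, which is also known as an NRF2 target, had no match in its window. Both motif searches are descriptions of letters, and no binding was measured.

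Slc7a11 encodes xCT, the light chain of the exchanger that imports cystine and exports glutamate, and cystine is the source of cysteine for glutathione. It read 4.92, 7.16 and 7.28 in control replicates 1, 2 and 3, and 4.76, 6.97 and 6.98 in silenced replicates 1, 2 and 3. Both arrays numbered 1 were low, the other 4 lay within 0.32 log2 of each other, and the gap between the sets was 2.05. Number 1 was lower than the mean of numbers 2 and 3 by 2.30 log2 in control (4.94-fold) and by 2.21 log2 in silenced arrays (4.64-fold). Averaged over both groups, this was the second lowest value among the 11292 tested genes (rank 2). By group, Slc7a11 read 6.46 ± 1.33 (SD, n = 3) in control. Its silenced mean was 6.23 ± 1.28, and the groups overlapped.

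Slc3a2 encodes the heavy chain 4F2hc (CD98), the glycoprotein that carries xCT and several other light chains to the plasma membrane. It read 10.82, 11.35 and 11.32 in control replicates 1 to 3 and 10.73, 11.44 and 11.39 in the silenced ones. Both arrays numbered 1 were again low, by 0.52 log2 (1.44-fold) in control and 0.68 log2 (1.6-fold) in silenced arrays, and the other 4 arrays spanned 0.12. Slc7a5 encodes LAT1, the light chain that pairs with 4F2hc to take up leucine and other large neutral amino acids. Its values were 9.98, 10.71 and 10.65 in control and 9.99, 10.89 and 10.79 in silenced replicates 1 to 3. The number 1 arrays lay 0.70 and 0.85 log2 below the mean of the others in control and silenced cells (1.63-fold and 1.80-fold). For both chains of the LAT1 complex, every array numbered 2 or 3 lay above every array numbered 1.

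Slc7a1 encodes CAT1, the general carrier of arginine and lysine. It read 8.39, 9.17 and 9.05 in control and 8.31, 9.23 and 9.06 in silenced replicates 1 to 3. The number 1 arrays were lower by 0.72 log2 (1.65-fold) in control and 0.83 log2 (1.78-fold) in silenced arrays, with a gap of 0.65 to the nearest other array. Slc7a3 encodes CAT3, a related carrier of cationic amino acids known mainly from brain. It read 2.84, 2.42 and 3.0 in control and 2.87, 2.63 and 2.61 in silenced replicates 1 to 3, all below the filter level of 3.87. Its number 1 arrays lay within the range of the other 4, with differences of 0.13 and 0.25 log2. At that level RMA compresses differences, so the flat reading of Slc7a3 does not show that its transcript was steady.

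Slc1a4 encodes ASCT1 and Slc1a5 encodes ASCT2, exchangers of neutral amino acids such as alanine, serine and cysteine, with glutamine carried by ASCT2. Slc1a4 read 8.10, 9.09 and 9.0 in control and 8.12, 8.92 and 8.97 in silenced replicates 1 to 3. Number 1 was lower by 0.95 log2 (1.93-fold) and 0.82 log2 (1.77-fold), just short of 2-fold in control. For Slc1a5 the readings were 6.48, 7.23 and 7.06 in control and 6.44, 7.14 and 6.92 in silenced replicates 1 to 3. The number 1 arrays were lower by 0.66 log2 (1.58-fold) and 0.59 log2 (1.5-fold), and its gap of 0.44 between the sets was the smallest of the 7 genes.

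Slc38a2 encodes SNAT2, a sodium-coupled carrier of small neutral amino acids whose gene is known to be induced by amino acid starvation. It read 11.01, 11.19 and 11.07 in control and 11.10, 11.18 and 11.25 in silenced replicates 1 to 3. All 6 arrays lay close together and the number 1 arrays overlapped the others, with differences of -0.11 log2 in both groups. Slc6a9 encodes GlyT1, the sodium- and chloride-coupled glycine carrier. It read 8.94, 10.27 and 10.00 in control and 8.94, 10.34 and 10.12 in silenced replicates 1 to 3. Number 1 was lower by 1.20 log2 (2.29-fold) in control and 1.29 log2 (2.44-fold) in silenced arrays, with a gap of 1.06.

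Slc7a11 and Slc6a9 were the 2 members at least 2-fold lower on the number 1 array in both groups, where 0.301% of all tested genes (34 genes) were. Just inside that limit was Slc6a9, and just outside it Slc1a4. Both arrays numbered 1 lay below all other arrays for 7 of the 9 members and for 15.3% of tested genes. The median difference of the 9 members was -0.70 log2 in control and -0.82 in silenced arrays. It was -0.71 and -0.83 over the 8 tested, against -0.0041 and 0.020 over all tested genes. These shares are given for scale and nothing is read from them, since the list was drawn up with this contrast known. In bulk RNA, a lower reading from fewer cells that express a gene and one from less RNA per cell cannot be told apart.

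**Figure D2:**
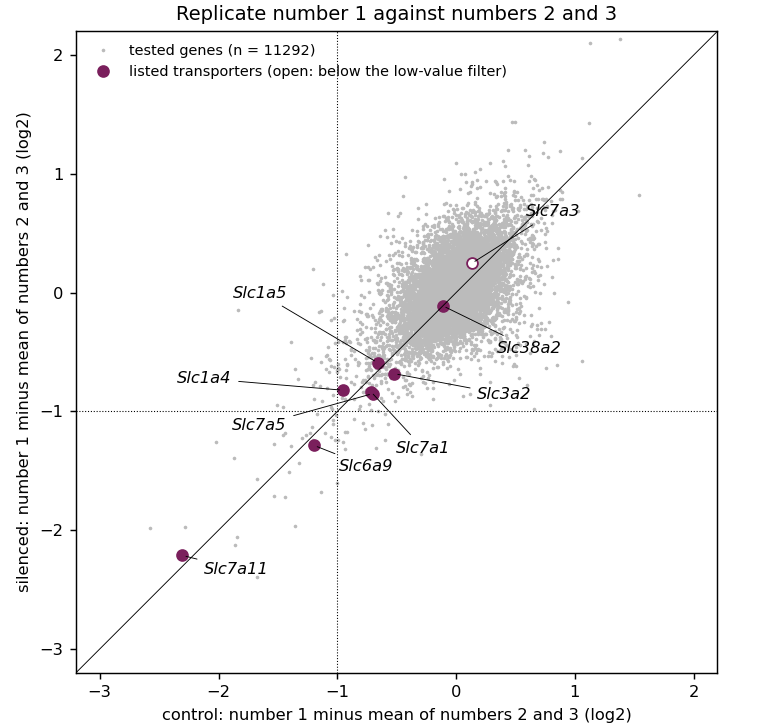
Log2 difference of the array numbered 1 from the mean of numbers 2 and 3, in control (horizontal) and silenced arrays (vertical), for the 11292 tested genes (grey) and the listed transporters (purple, Slc7a3 open because it lay below the low-value filter); the diagonal marks equal differences and the dotted lines a 2-fold decrease. Slc7a11 (-2.30, -2.21) and Slc6a9 (-1.20, -1.29) lie past both dotted lines, 5 other transporters lie between -0.52 and -0.95 on both axes, and Slc38a2 lies within the grey cloud.

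Silencing of miR-382-5p was then compared with control across all genes with limma (2-sided, Benjamini-Hochberg adjustment over the 11292 tested genes). No tested gene was called (0 genes, or 0% of those tested, with 542 genes, 4.8%, at an unadjusted p under 0.05), and 0 of the 8 tested transporters were called, with limma's adjusted p from 0.891 to 1.00 and none under 0.05 before adjustment. Differences of the 9 members ran from -0.22 to 0.11 log2, with 4 higher and 5 lower in silenced arrays, beside 47.3% of tested genes lower. Their median was -0.0018 over the 9 and 0.011 over the 8 tested (4 higher and 4 lower), against 0.0089 over all tested genes. For none of the 9 did the silenced values lie apart from the control values, which they did for 11.8% of tested genes. For 7 of the 9 this could not occur, because both arrays numbered 1 lay below all other arrays. Nothing about silencing is therefore read from that count.

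Replicate numbers set the precision of this comparison, because same-numbered arrays varied together. Without the number in the fit, the standard error (SE) of the difference was 0.79 log2 for Slc7a11, 0.44 for Slc6a9, 0.22 to 0.32 for Slc3a2, Slc7a5, Slc7a1, Slc1a4 and Slc1a5, and 0.085 for Slc38a2. Once the replicate number entered as a block, the SE was 0.073 to 0.078 for all 8. Over all tested genes the blocked SE had a minimum of 0.071 and a median of 0.083. Limma moderates each gene's variance with that of all tested genes, so these SEs are not each gene's own spread alone. The blocked limma fit also called 0 genes (0%) after adjustment, while 10.3% of tested genes had an unadjusted p under 0.05.

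In that blocked fit Slc7a11 had the smallest p of the members. Its silenced minus control difference was -0.22 ± 0.075 (blocked SE), with a 95% confidence interval of -0.40 to -0.039. The differences within pairs 1, 2 and 3 were -0.16, -0.20 and -0.31, lower in 3 of 3 pairs, as in 15.8% of tested genes. Limma's p for it was 0.0244 before and 0.464 after adjustment over all genes, so it did not pass the threshold. The names were proposed with results on ATF4 targets in silenced cells in view. Nothing is therefore read from this unadjusted p, its interval or its rank among the members.

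The other transporters had blocked intervals that included 0. Slc7a5 differed by 0.11 (-0.071 to 0.30), with pair differences of 0.015, 0.18 and 0.15, and its partner Slc3a2 by 0.024 (-0.16 to 0.21), with pair differences of -0.083, 0.091 and 0.066. Slc7a1 differed by -0.0018 (-0.18 to 0.18). The pair differences of Slc7a1 were -0.078, 0.058 and 0.015, on both sides of 0. Slc1a4 differed by -0.061 (-0.25 to 0.13) and Slc1a5 by -0.088 (-0.26 to 0.087), the latter lower in 3 of 3 pairs by 0.041 to 0.13. Slc38a2 differed by 0.087 (-0.100 to 0.27) and Slc6a9 by 0.063 (-0.11 to 0.24). Slc7a5 and Slc6a9 were higher in all 3 pairs, as 19.7% of tested genes were. Slc7a3, not tested, differed by -0.051, with pair differences of 0.026, 0.21 and -0.38. With the block these intervals reach no further than 0.40 log2 from 0 for any tested transporter, whereas the intervals without it reach to -2.07 and 1.63 for Slc7a11. The narrower intervals hold only if same-numbered arrays are true pairs, which was read from these data and not from a label.

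**Figure D3:**
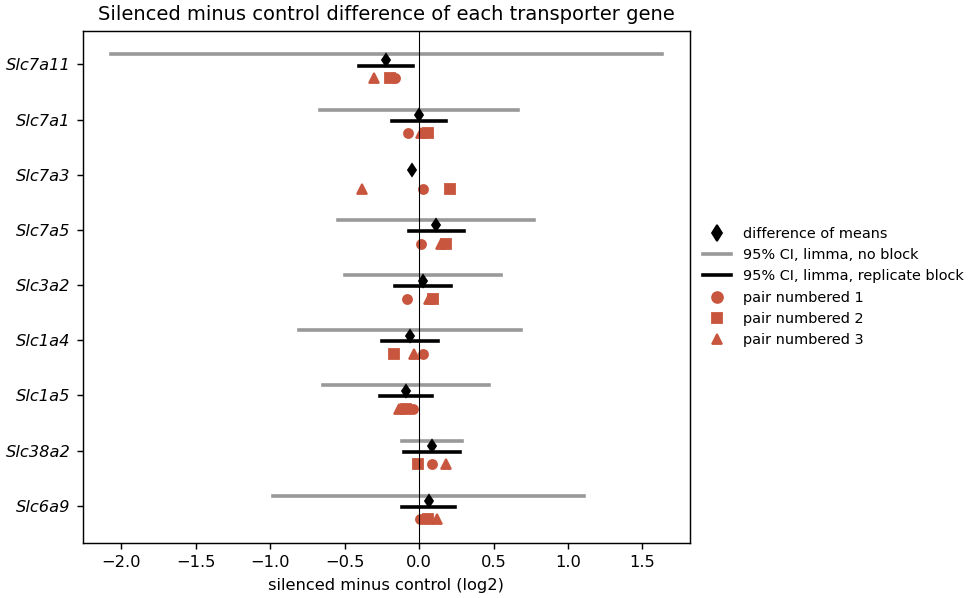
Silenced minus control difference in log2 for each transporter (diamond), with the 95% confidence interval of limma without (grey) and with (black) the replicate number as a block, and the difference within each same-numbered pair (red symbols). All diamonds lie between -0.22 and 0.11; the black interval of Slc7a11 (-0.40 to -0.039) is the only one that does not include 0, before adjustment, and Slc7a3 has no interval because it was not tested.

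Other genes of the same pathway were followed through lists. In each of the 6 lists, 0 tested genes passed limma in either direction for silencing, with and without the block, beside 0% of all tested genes. Among amino acid transporters of the plasma membrane outside the 9, 10 of 30 measured genes were tested, 7 higher and 3 lower, with a median difference of 0.11. The genes with the smallest p in that list were Slc43a1, a carrier of large neutral amino acids, at 5.97 ± 0.055 in control and 6.18 ± 0.076 in silenced arrays (SD, n = 3), and Slc6a17 at 4.92 ± 0.058 and 5.09 ± 0.12 (limma, adjusted p = 0.871 for both).

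ATF4 with partner factors and the eIF2 alpha kinases had a median silenced minus control difference of -0.10 over 12 tested genes, 3 higher and 9 lower. The kinases Eif2ak2 and Eif2ak1 had its smallest p, with differences of -0.14 ± 0.085 and 0.14 ± 0.12 (SE). Amino acid synthesis enzymes under ATF4 had a median of -0.041 (13 genes, 4 higher), with Got1, an aspartate aminotransferase, at 0.13 ± 0.15 (SE) and Psph, of serine synthesis, at -0.23 ± 0.36. Cytosolic aminoacyl-tRNA synthetases had a median of 0.0026 (17 genes, 9 higher), with the arginine enzyme Rars at -0.24 ± 0.074 and the isoleucine enzyme Iars at 0.15 ± 0.12. Genes of amino acid sensing by mTORC1, the kinase complex that transport of leucine and arginine feeds, had a median of 0.0033 (30 genes, 16 higher). Its scaffold gene Rptor read 8.55 ± 0.056 in control and 8.86 ± 0.078 in silenced arrays (SD), and the kinase gene Mtor 7.81 ± 0.026 and 8.04 ± 0.053 (limma, unadjusted p = 0.00614 and 0.0186, adjusted p = 0.871 for both). NRF2 and its antioxidant targets had a median of 0.029 (12 genes, 9 higher), with Osgin1 at 0.11 ± 0.15 (SE) and Hmox1, heme oxygenase, at -0.069 ± 0.12.

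The lists differed in how they followed the replicate number, which is given as a description. The lists, like the members, were chosen with earlier results of these data known, so nothing is read from these counts. On number 1 arrays 13 of 13 tested synthesis enzymes were lower in both groups, as were 12 of 17 tRNA synthetases and 9 of 12 genes of the ATF4 and kinase list, beside 8 of the 9 transporters and 31.2% of all tested genes. Their median differences were -0.49 (control) and -0.85 (silenced) for enzymes, -0.35 and -0.44 for synthetases and -0.51 and -0.44 for the ATF4 list. In the mTORC1 sensing list 12 of 30 genes were lower and 8 higher in both groups, with medians of -0.041 and -0.051. Among transporters outside the 9, 4 of 10 were lower and 3 higher in both groups, with medians of -0.057 and 0.022. Named from the lower side only, after their values were seen, Slc1a3, a glutamate carrier, was lower by 0.93 and 1.18 log2. Likewise Slc7a2, a cationic carrier, was lower by 0.54 and 0.84. In the NRF2 list 1 of 12 genes was lower and 7 were higher in both groups, as 33.6% of tested genes were, with medians of 0.20 and 0.18. The lists share arrays, so their profiles are not independent of each other.

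**Figure D4:**
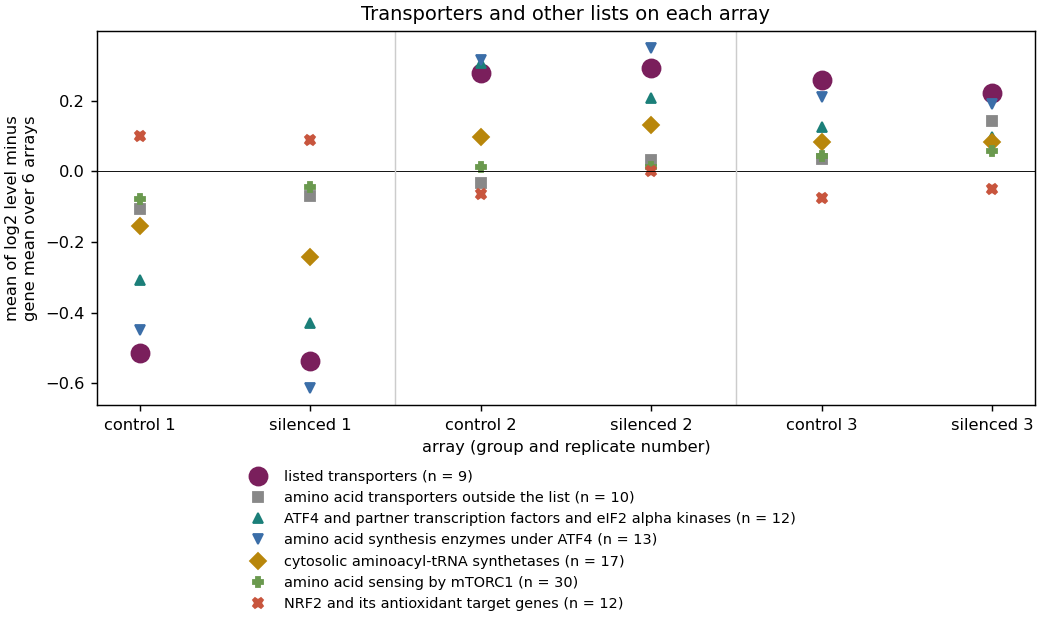
Mean over each list of the log2 level minus each gene's own mean over the 6 arrays, for the 9 transporters (large purple circles) and 6 other lists, with arrays ordered by replicate number; n is the number of genes in each mean. The transporters lie at -0.51 and -0.54 on the arrays numbered 1 and between 0.22 and 0.29 on the other 4, the ATF4 and enzyme lists are also low on number 1, and the NRF2 list is higher there (0.10 and 0.087).

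ATF4's own transcript read 9.80, 10.15 and 10.24 in control and 9.63, 10.18 and 10.08 in silenced replicates 1 to 3, lower on number 1 by 0.40 and 0.50 log2. Activity of ATF4 is set largely by translation of its mRNA, which these arrays do not measure. Trib3, a pseudokinase induced by ATF4, read 7.21, 9.02 and 8.75 in control and 6.38, 8.83 and 8.72 in silenced replicates, and Cth, which makes cysteine from cystathionine, read 6.88, 8.83 and 8.64 and 6.54, 8.89 and 8.44 (both named after their values were seen). On the silenced number 1 array Trib3 lay 0.83 log2 below the control array of that number, while Slc7a11 lay 0.16 below and Slc6a9 0.0043 above. That compares a single array per group, picked after the values were seen. Trib3 readings of the groups lay closer together on numbers 2 and 3. Among the eIF2 alpha kinases, Eif2ak3 (PERK) and Eif2ak1 (HRI) were higher on number 1 in both groups, by 0.49 and 0.41 log2 and by 0.26 and 0.25 log2 (Atf4 and Eif2ak3 too were named after their values were seen). The kinase Eif2ak2 differed by -0.081 log2 in control and 0.14 log2 in silenced arrays. In the whole ATF4 and kinase list, 9 of 12 tested genes were lower and 2 higher on number 1 in both groups.

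The 6 tested genes whose profile over the 6 arrays lay nearest to the mean profile of the 9 transporters were Tnfaip2, Gadd45a, Afap1l2, Eif4ebp1, Vegfa and Rhbdd1. Likeness was the root mean square distance between profiles centred on each gene's mean, and it was 0.043 to 0.075 log2 for these genes, against a median of 0.39 over the 11284 tested genes outside the list. Eif4ebp1 encodes 4E-BP1, an inhibitor of cap-dependent translation, and read 7.83, 8.66 and 8.52 in control and 7.70, 8.50 and 8.42 in silenced replicates 1 to 3. Gadd45a, a growth arrest and DNA damage gene, read 9.82, 10.61 and 10.60 and then 9.87, 10.57 and 10.67. Among the members themselves, Slc7a1 lay nearest to the mean profile (0.050) and Slc7a11 farthest (0.70), because of its larger range. The genes nearest to Slc7a11 alone were Elmo1, a regulator of Rac signalling, and Dhrs9, a short-chain dehydrogenase, at 0.12 and 0.13. Number 1 minus the mean of numbers 2 and 3 was -2.28 for Elmo1 and -2.58 for Dhrs9 in control, and -1.98 for each in silenced arrays. Nearest to Slc7a3 were E230025N22Rik and Manf (0.070 and 0.075). Slc7a3 lay below the filter level, so nothing is read from that likeness.

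Markers of cell state also moved with the replicate number. All 7 measured markers of dividing cells, such as Mki67 and Top2a, were higher on number 1 in both groups, by a median of 0.43 and 0.59 log2. Their mean level was 9.11 and 9.17 on the arrays numbered 1, against 8.55 to 8.77 on the other control and 8.35 to 8.82 on the other silenced arrays. All 6 tested fibroblast and matrix markers were lower on number 1 in both groups, with medians of -0.30 and -0.27. Myotube markers had medians of 0.018 and -0.10 and undifferentiated myoblast markers -0.068 and 0.016. For silencing, 0 markers passed limma in any of the 6 marker lists, with or without the block. Of the 20 myotube markers 17 were higher and 3 lower in silenced arrays, beside 5951 of 11292 tested genes higher. Their median difference was 0.17, and 0.098, 0.18 and 0.20 within pairs 1, 2 and 3. Over all tested genes these medians were 0.0089, and 0.031, -0.0081 and 0.0094 within the pairs. The myotube markers' mean level was 10.17, 10.11 and 10.22 in control and 10.23, 10.25 and 10.47 in silenced replicates 1 to 3, highest on silenced replicate 3. For silencing, the median differences were -0.023 for undifferentiated myoblast, -0.023 for dividing cell and -0.0082 for fibroblast markers. They were -0.096 and 0.099 for the 2 adipocyte and 3 osteoblast and chondrocyte markers tested. The part of these differences in the transporters' values was not tested.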

How the data were processed

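Total RNA (100 ng per sample, RNA integrity number above 8.0, per the labels' protocols) from 6 samples was hybridised to 1-colour Affymetrix whole-transcript arrays. The authors deposited log2 values made with RMA, per the submitters' processing notes; no version of it is given here. It subtracts background, equalizes array distributions and compresses differences of dim genes. The number of arrays limits the precision. Gene names for the 35556 probe sets came from GEO's platform annotation: 21218 name 1 gene, 1881 name several and 12457 are not listed in it; 21185 matched RefSeq GRCm38.p6. Each member had 1 single-gene probe set.

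The comparison used limma 3.58.1 (R 4.3.3, lmFit and eBayes, all 6 arrays, no covariate, threshold 0.05). The fit was also run on simulated data with independent noise on each array. Those data held no shift shared by same-numbered arrays, so they do not show how the fit behaves under that shift. Same-numbered arrays deviated from their group means together (correlations of 0.55, 0.35 and 0.42), so pairing was read from the data, not from a label. Alternatives were other filters, probe set choices, normalizations and variance models, left-out arrays and the replicate block. Named genes were the members, the 2 tested genes of smallest p in each list, and the 6 nearest to the members' mean profile with 2 each for Slc7a11 and Slc7a3; Slc1a3, Slc7a2, Atf4, Trib3, Cth and Eif2ak3 were named outside this rule, after their values were seen. The members and lists were chosen with earlier results of these data known. Ddit3 and Atf5 had no single-gene probe set and are not analysed here.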

Additional observations from a re-analysis of the deposited data

How the results depend on the processing

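The count of 0 called genes and 0 called transporters held under all 15 alternatives run, with 272 to 1168 genes at an unadjusted p under 0.05. The count of 2 transporters at least 2-fold lower on number 1 in both groups held under the 12 alternatives that kept both arrays numbered 1. The transporters' median silenced minus control difference ran from -0.0018 to 0.036 under the alternatives that kept every array or dropped both numbered 1, and from -0.24 (without control replicate 1) to 0.25 (without silenced replicate 1) when 1 array was left out. Leaving out 1 array unbalances the numbers, and signs then turned for most members: Slc7a11 ran from -0.99 to 0.52, Slc7a1 from -0.24 to 0.28, Slc7a5 from -0.12 to 0.40, Slc3a2 from -0.15 to 0.25, Slc1a4 from -0.38 to 0.21, Slc1a5 from -0.31 to 0.11 and Slc6a9 from -0.34 to 0.49, while Slc38a2 stayed between 0.049 and 0.14. Slc7a3, not tested, ran from -0.22 to 0.072, and its control difference of number 1 from -0.16 to 0.42. Slc7a1, at -0.0018, was also above 0 with each array centred on its median (0.010), after repeated quantile normalization (0.00015) and without both arrays numbered 1 (0.036). The replicate block changed no call. Without silenced and control arrays numbered 1, Slc7a11 differed by -0.25 (limma, adjusted p = 0.461, from 0.461 to 1.00 over all alternatives).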
